A study of Mus musculus with 12 samples.

Results

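The genes described here encode 6 families of solute carriers, Slc1, Slc3, Slc7, Slc36, Slc38 and Slc43, most of whose members move amino acids across the plasma membrane or the lysosomal membrane. They were taken as every gene of the deposited count table whose symbol names one of these families and a member number, which gave 42 of 32285 genes. Expression was measured by bulk RNA sequencing of nucleus pulposus, the soft centre of a spinal disc, dissected from the tails of mice aged 12 months, of the strain C57BL/6-129/SvEv. In 6 Opa1cKO mice, Opa1, a GTPase that fuses inner mitochondrial membranes, had been deleted at 3 months of age with AcanCre, and these mice were kept for 9 more months and compared with 6 WT mice. Both genotypes received tamoxifen at 100 mg/kg on 3 days in a row. AcanCre is driven from the aggrecan locus, so deletion is limited to aggrecan-expressing cells of disc and cartilage, and any other cell in the dissected tissue keeps Opa1.

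Amino acids cross membranes mainly through such carriers, by sodium-coupled uptake, proton-coupled transport, facilitated diffusion or exchange. Members of Slc7 that exchange neutral or cationic amino acids need a glycoprotein heavy chain, Slc3a2 or Slc3a1, to reach the cell surface. Several carrier genes are textbook targets of the amino acid starvation response, in which the kinase GCN2 raises translation of the transcription factor ATF4. The disc core has no blood vessels, and its cells depend on nutrients that diffuse through the matrix.

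Library totals ran from 37268242 to 56618266 counts. Opa1 was at 30.3 to 47.7 CPM in the Opa1cKO libraries and at 69.3 to 118 CPM in the WT libraries, a log2 fold change of -1.22 (SE 0.116, adjusted p = 3.05e-05 by edgeR); CPM are counts scaled to library size with TMM factors. The notochord marker T (brachyury) was present in both genotypes, and the summed level of 10 nucleus pulposus markers was 7980 to 10800 CPM in Opa1cKO and 8907 to 12360 CPM in WT. Sex-linked reads went against the labelled sex in 4 libraries (Opa1cKO 4, WT 4, WT 5 and WT 6), and calls are given below with and without them. Labelled sex was unbalanced, with 2 females and 4 males among Opa1cKO and 4 females and 2 males among WT. By the sex-linked reads, Opa1cKO 1 to 3 and WT 4 were male and all other libraries female, so the balance differed from the labels. In bulk tissue, fewer cells of a type and less RNA per cell cannot be told apart.

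Of the 42 members, 30 passed the filter on low counts and were tested, and 8 of those were called at an adjusted p below 0.05. Slc7a1, Slc7a5 and Slc7a6 were higher in Opa1cKO. Slc7a8, Slc36a4, Slc38a4, Slc43a1 and Slc43a3 were lower. The 8 calls are 26.7% of the tested members, beside 10.2% of the 15229 genes tested overall. The 3 higher calls stand beside 5.10% of all genes called higher, and the 5 lower calls (16.7%) beside 5.13% called lower. An unadjusted p below 0.05 was reached by 17 of the 30 members (56.7%) and by 25.2% of all genes. Ranges of CPM did not overlap between genotypes for 4 of the 30 members (13.3%), against 6.41% of all genes tested. DESeq2 called 10 of the 30 members, beside 15.2% of all genes. The median log2 fold change was 0.157 over the tested members and 0.013 over all genes tested, with 20 members above 0 and 10 below. The 12 untested members are Slc1a7, Slc7a9, Slc7a10, Slc7a11, Slc7a12, Slc7a13, Slc7a14, Slc7a15, Slc36a2, Slc36a3, Slc38a8 and Slc38a11. Each had fewer than 60 counts over the 12 libraries, and Slc7a12, Slc7a13 and Slc36a3 had no count in any.

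Levels can be compared between genes in TPM, which is scaled for transcript length. The summed TPM of all 42 members averaged 1306 ± 93.7 in Opa1cKO and 1316 ± 93.7 in WT (SD, n = 6 each), with ranges of 1204 to 1418 and 1161 to 1396 that overlapped almost entirely. Slc7a2 held the first place in both genotypes and Slc38a1 the second. Slc43a3 stood 7th among the members in Opa1cKO, at 57.7 TPM, and 3rd in WT, at 132 TPM. Slc38a4 stood 19th in Opa1cKO, at 2.09 TPM, and 13th in WT, at 10.9 TPM. In WT, 6 members averaged at least 100 TPM, namely Slc7a2, Slc38a1, Slc43a3, Slc3a2, Slc38a10 and Slc38a2, and 26 of the 42 averaged at least 1 TPM over the 12 libraries.

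**Figure D1:**
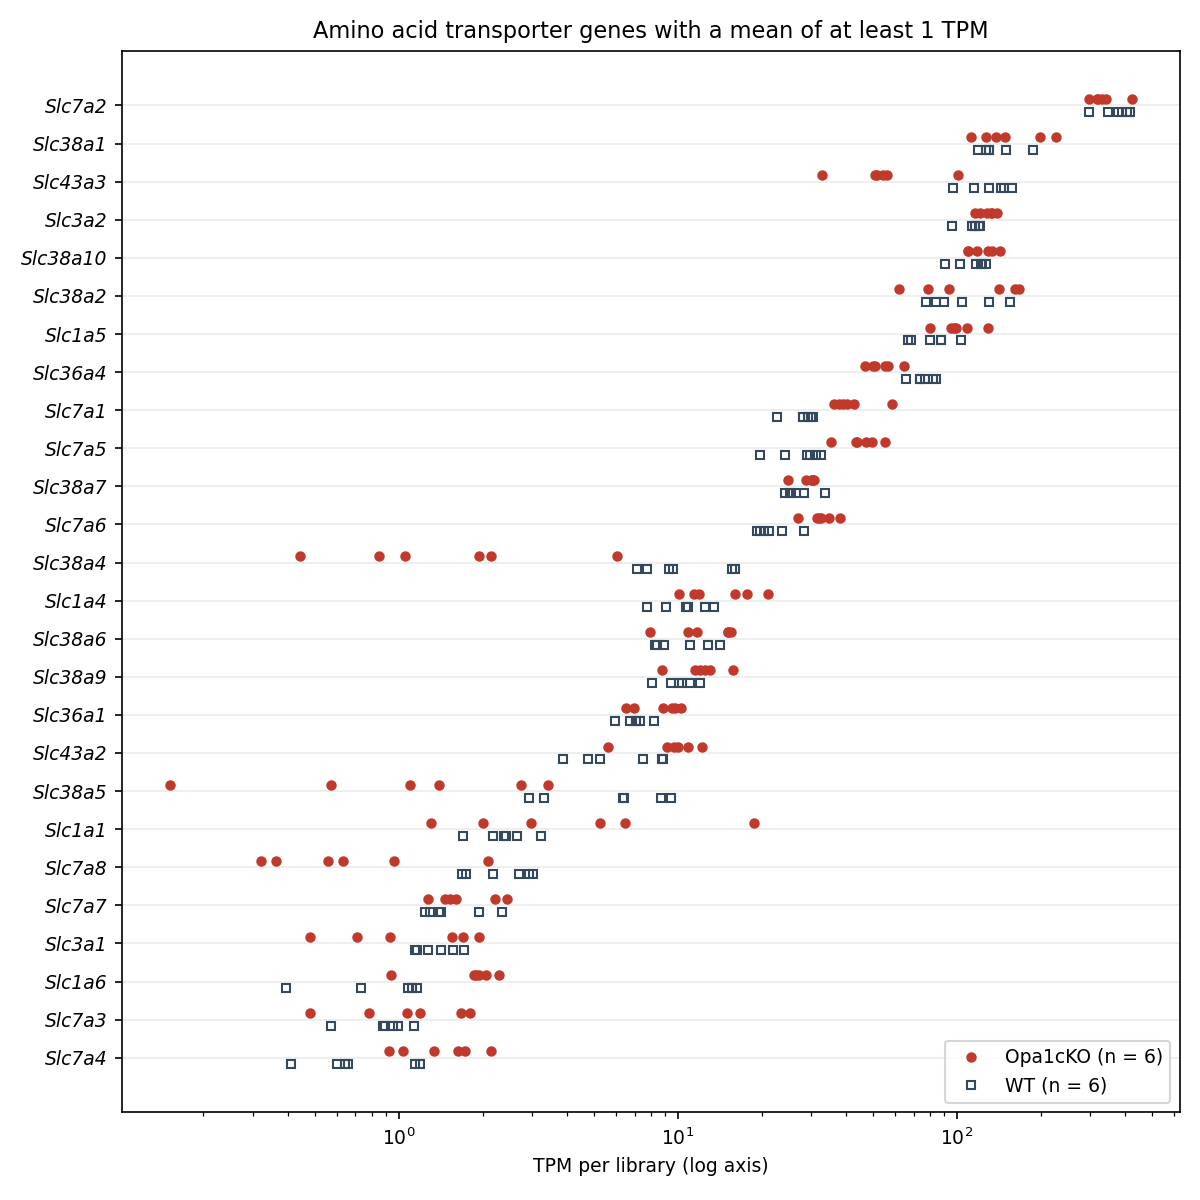
TPM (length-scaled transcript share, log axis) of the 26 members with a mean of at least 1 TPM, ordered by their WT mean, with filled circles for the 6 Opa1cKO libraries and open squares for the 6 WT libraries. Slc7a2 tops both genotypes, the circles of Slc7a1 and Slc7a5 lie right of their squares, and those of Slc38a4 lie left of theirs.

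Promoter windows, from 250 bases before to 50 after a RefSeq transcript start in GRCm38.p6, were available for 31 members, among them 6 of the 8 called. They were searched on both strands for TGATGNAA, the core of composite elements bound by ATF4 with a C/EBP partner, and for ACGTG and GCGTG, cores of hypoxia response elements. TGATGNAA was found in 3 members, Slc1a4, Slc7a7 and Slc7a11, and in 4.51% of all genes with a window, and no called member with a window held it. ACGTG was found in 13 members and 21.8% of all genes, and GCGTG in 12 members and 35.2% of all genes. Neighbouring matches of different motifs can share an end letter, and ACGTG overlaps itself on the other strand within CACGTG. Among the 6 called members with a window, GCGTG was found in 4 (Slc7a1, Slc7a6, Slc36a4 and Slc38a4) and ACGTG in 2 (Slc7a6 and Slc43a1). The stretches below show examples of these matches, lying before the start (Slc7a6, chr8:106168754-106168853, plus strand; Slc36a4, chr9:15709638-15709737, plus strand; Slc43a1, chr2:84840243-84840272, plus strand) or the paired composite core of the cystine carrier (Slc7a11, chr3:50443614-50443713, minus strand). Each is written 5′ to 3′ on the strand of the gene, with the matched letters in capitals.
Slc7a6: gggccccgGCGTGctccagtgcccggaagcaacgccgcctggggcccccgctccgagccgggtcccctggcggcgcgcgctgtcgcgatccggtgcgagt
Slc36a4: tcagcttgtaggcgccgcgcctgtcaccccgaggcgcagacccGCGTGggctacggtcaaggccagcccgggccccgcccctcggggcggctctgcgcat
Slc43a1: gcccagggtctccctcCACGTGgcagccgt
Slc7a11: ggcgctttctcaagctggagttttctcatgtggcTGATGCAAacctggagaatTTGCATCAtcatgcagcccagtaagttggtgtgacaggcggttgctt
The windows of Slc7a6 and Slc36a4 hold further matches outside these stretches, the match in Slc38a4 began 15 bases before its start, and that in Slc7a1 lay after its start. The RefSeq starts of these Slc38a4 and Slc7a1 windows lie inside the annotated genes. GCGTG began 92 bases before the start in Slc7a6 and 57 before in Slc36a4, of which Slc7a6 was higher and Slc36a4 lower in Opa1cKO. In Slc43a1, whose RefSeq start lies inside the annotated gene, the palindrome CACGTG holds ACGTG on both strands, beginning 64 and 63 bases before the start. Slc7a11 carried TGATGCAA 66 bases before the start and again on the opposite strand 47 before it. A match describes letters in these windows and says nothing of binding.

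Among carriers of cationic amino acids, Slc7a1 was higher in Opa1cKO. Slc7a1 encodes CAT1, the widely expressed carrier of arginine, lysine and ornithine (ENSMUSG00000041313, chromosome 5, 148327410 to 148399904, minus strand of mm10, the build of all positions below). In Opa1cKO 1 to 6 the values were 106, 98.4, 98.3, 99.5, 92.9 and 139.8 CPM, and in WT 1 to 6 they were 61.2, 71.7, 76.2, 69.4, 69.8 and 78.0 CPM. Every Opa1cKO library was above every WT library, and Opa1cKO 6 stood apart at the top. The means were 106 ± 17.2 CPM in Opa1cKO and 71.05 ± 5.94 CPM in WT, a log2 fold change of 0.59 (SE 0.105, adjusted p = 0.00329 by edgeR). With the 4 libraries of contradicted sex removed, it was 0.74 (adjusted p = 0.0616).

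Slc7a2 encodes CAT2, a related cationic carrier that in macrophages supplies arginine to nitric oxide synthase, and it was the most abundant of all members. Libraries Opa1cKO 1 to 6 read 586, 657, 657, 641, 857 and 623 CPM, and WT 1 to 6 read 637, 759, 817, 783, 681 and 793 CPM. Opa1cKO 5 was the highest of the 12 and the groups overlapped (log2 fold change -0.12, SE 0.106, edgeR adjusted p = 0.539). Within the summed TPM of Slc7a1, Slc7a2 and Slc7a3, the share of Slc7a1 was 7.90 to 15.02% in Opa1cKO and 6.54 to 7.50% in WT. The share of Slc7a2 was 84.6 to 92.0% in Opa1cKO and 92.3 to 93.2% in WT. Slc7a3 averaged only 1.17 TPM in Opa1cKO and 0.905 TPM in WT, so these shares nearly mirror each other. Their complete separation of the genotypes is therefore a single result, which partly restates that of Slc7a1. Slc7a2 remained the main transcript of the trio in every library. Slc7a4, a relative with no established transport activity, averaged 1.32 ± 0.410 CPM in Opa1cKO and 0.705 ± 0.284 CPM in WT (log2 fold change 0.80, edgeR adjusted p = 0.136), the smallest p among the Slc7 members not called.

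The heavy chain Slc3a2 (CD98) was abundant and was not called. Across Opa1cKO 1 to 6 the gene stood at 106, 99.0, 102, 103, 90.8 and 88.4 CPM, against 96.3, 93.6, 74.4, 84.4, 86.0 and 94.9 CPM across WT 1 to 6. The groups overlapped, with the 4 highest values in Opa1cKO 1 to 4 (log2 fold change 0.11, SE 0.0791, edgeR adjusted p = 0.416). The other heavy chain, Slc3a1, which partners Slc7a9 in kidney and gut, averaged 0.598 ± 0.286 CPM in Opa1cKO and 0.691 ± 0.120 CPM in WT. Its log2 fold change of -0.09 (edgeR adjusted p = 0.900) turned positive in 4 of the alternative choices of libraries, at 0.03 to 0.32.

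Of the light chains that pair with Slc3a2, Slc7a5 and Slc7a6 were higher and Slc7a8 was lower in Opa1cKO. Slc7a5 encodes LAT1, which exchanges large neutral amino acids such as leucine for intracellular glutamine (ENSMUSG00000040010, chromosome 8, 121881150 to 121907694, minus strand). Opa1cKO 1 to 6 had 35.1, 34.0, 29.4, 45.05, 38.9 and 38.1 CPM, and WT 1 to 6 had 21.1, 16.2, 26.5, 23.8, 23.7 and 24.0 CPM. An opposite-strand gene model, Gm20388, is annotated across Slc7a5 and was not analysed here, and the other 7 called members overlap no annotated gene. The lowest Opa1cKO library, replicate 3, was above the highest WT library, replicate 3. The means were 36.8 ± 5.28 CPM in Opa1cKO and 22.55 ± 3.55 CPM in WT, a log2 fold change of 0.70 (SE 0.132, adjusted p = 0.0045 by edgeR). It was 0.86 (adjusted p = 0.0562) once the 4 libraries of contradicted sex were left out.

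Slc7a6 encodes y+LAT2, which releases cationic amino acids in exchange for neutral ones and sodium (ENSMUSG00000031904, chromosome 8, 106168857 to 106198706, plus strand). In Opa1cKO 1 to 6 the values were 32.0, 26.0, 33.1, 31.9, 35.3 and 36.05 CPM, and in WT 1 to 6 they were 20.7, 19.9, 20.4, 26.7, 20.8 and 23.9 CPM. Only Opa1cKO 2 lay below the highest WT library, replicate 4, so the ranges overlapped by that single pair. Its log2 fold change was 0.58 (SE 0.104, adjusted p = 0.00342 by edgeR), and it was 0.81 without the 4 libraries of contradicted sex, where it was still called (adjusted p = 0.024). Its partner in function, Slc7a7 or y+LAT1, was at 0.892 to 1.75 CPM in Opa1cKO and 0.951 to 1.67 CPM in WT and was not called.

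Slc7a8 encodes LAT2, which like LAT1 exchanges neutral amino acids but takes small ones as well (ENSMUSG00000022180, chromosome 14, 54722209 to 54781946, minus strand). Libraries Opa1cKO 1 to 6 read 0.347, 0.588, 2.36, 1.06, 0.404 and 0.655 CPM, and WT 1 to 6 read 3.56, 2.99, 3.23, 1.80, 1.82 and 2.43 CPM. All Opa1cKO libraries other than replicate 3 were below every WT library. The fitted log2 fold change was -1.65 (SE 0.489, adjusted p = 0.0476 by edgeR). This call was the least secure of the 8, since it was lost without any 1 of 11 libraries (adjusted p up to 0.163) and was kept only without Opa1cKO 3 (-2.06, adjusted p = 0.00228). With the 4 libraries of contradicted sex removed, it was -2.61 (adjusted p = 0.114).

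The summed TPM of the Slc3a2 light chains over that of Slc3a2 was 0.544 to 0.751 in Opa1cKO and 0.362 to 0.601 in WT, with overlap. Slc7a8 made up 1.05 ± 0.959% of the light-chain TPM in Opa1cKO and 4.57 ± 1.55% in WT, and Slc7a5 made up 56.3 ± 4.27% in Opa1cKO and 51.3 ± 3.73% in WT. The light chain Slc7a11, or xCT, which imports cystine for glutathione synthesis, had too few reads to be tested. It had 0, 2, 9, 8, 0 and 30 counts in Opa1cKO 1 to 6 and 1, 0, 0, 3, 2 and 0 counts in WT 1 to 6. Most of its counts therefore came from Opa1cKO 6, and 2 Opa1cKO libraries had none.

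**Figure D2:**
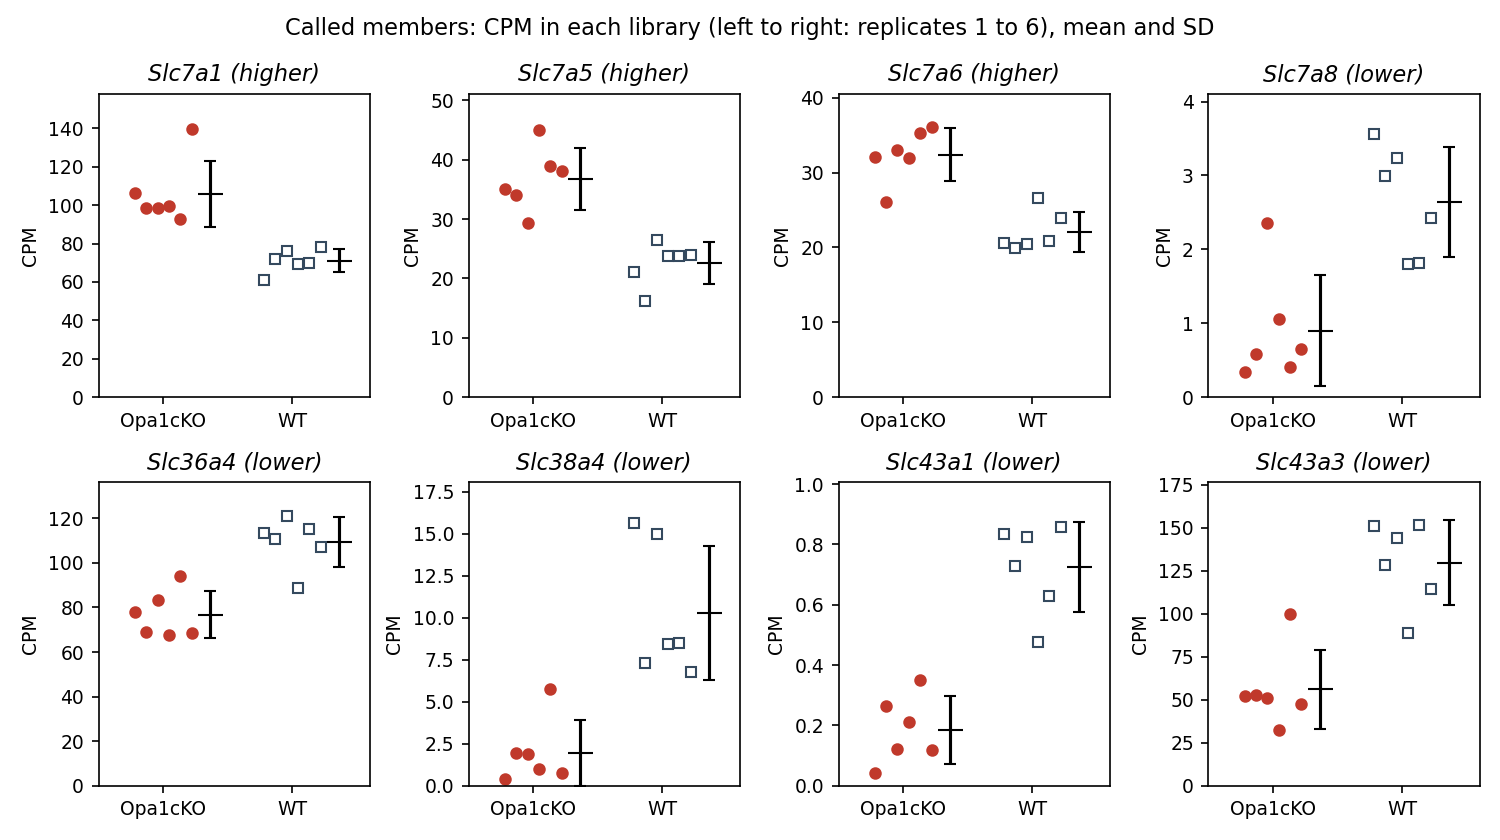
CPM in each library for the 8 called members, Opa1cKO left of WT in each panel, with replicates 1 to 6 from left to right and the mean and SD of the 6 libraries beside them. The 3 members higher in Opa1cKO come first, and among the 5 lower ones Opa1cKO 5 is the highest Opa1cKO library for Slc36a4, Slc38a4, Slc43a1 and Slc43a3.

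Of the 6 families, Slc43 had the largest loss in summed level. Its summed TPM averaged 67.5 ± 21.1 in Opa1cKO and 139 ± 21.6 in WT (SD, n = 6 each), with overlapping ranges, and most of it was Slc43a3. Slc43a3 is grouped here by its name, but its known substrates are purine nucleobases such as adenine, not amino acids (ENSMUSG00000027074, chromosome 2, 84936579 to 84958509, plus strand). Across Opa1cKO 1 to 6 the gene stood at 52.3, 52.8, 51.1, 32.4, 99.9 and 47.7 CPM, against 151, 128, 144, 88.8, 151 and 114 CPM across WT 1 to 6. Opa1cKO 5 lay above WT 4, and the other 5 Opa1cKO libraries were below all WT libraries. Its fitted log2 fold change was -1.14 (SE 0.222, adjusted p = 0.00719 by edgeR), and -0.93 (adjusted p = 0.106) once the 4 libraries of contradicted sex were left out.

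Slc43a1 encodes LAT3, which carries leucine, isoleucine, valine, phenylalanine and methionine by facilitated diffusion (ENSMUSG00000027075, chromosome 2, 84838850 to 84863594, plus strand). Opa1cKO 1 to 6 had 0.0408, 0.264, 0.123, 0.212, 0.350 and 0.117 CPM, and WT 1 to 6 had 0.834, 0.730, 0.825, 0.476, 0.629 and 0.857 CPM. The groups did not overlap, but the level was below 1 CPM in every library, so each value rests on few reads. The fitted log2 fold change was -1.93 (SE 0.420, adjusted p = 0.0107 by edgeR), and -1.77 (adjusted p = 0.219) once the 4 libraries of contradicted sex were left out. The third member, Slc43a2 or LAT4, a carrier of the same amino acids, averaged 20.8 ± 4.46 CPM in Opa1cKO and 14.2 ± 4.38 CPM in WT, with a log2 fold change of 0.44 that did not pass (edgeR adjusted p = 0.173). Slc43a3 held 77.9 to 94.5% of the family's TPM in Opa1cKO and 91.3 to 97.0% in WT.

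Slc43a1 and Slc43a3 both lie on chromosome 2, on the same strand and 73.0 kb apart. The single gene of the count table annotated between them, Rtn4rl2, a Nogo receptor relative, averaged 0.0894 CPM in Opa1cKO and 0.434 CPM in WT (log2 fold change -2.31, edgeR adjusted p = 0.0306). That call was lost without any 1 of 7 libraries, and with the 4 libraries of contradicted sex removed (-1.85, adjusted p = 0.402). The gene and this neighbourhood were picked after their values were seen. Slc38a1, Slc38a2 and Slc38a4 all lie on chromosome 15, with 295 kb between Slc38a2 and Slc38a4, and only Slc38a4 was called. Any part of gene position in these changes was not tested.

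The Slc38 family of sodium-coupled neutral amino acid carriers had 1 call among 9 tested members, near the 10.2% of all genes that were called. Slc38a4 encodes SNAT4, a system A carrier known from liver and placenta and imprinted in the mouse (ENSMUSG00000022464, chromosome 15, 96994820 to 97055956, minus strand). In Opa1cKO 1 to 6 the values were 0.408, 1.93, 1.86, 0.989, 5.76 and 0.749 CPM, and in WT 1 to 6 they were 15.7, 7.32, 15.0, 8.44, 8.50 and 6.75 CPM. All Opa1cKO libraries were below all WT libraries, with Opa1cKO 5 nearest to them. The means were 1.95 ± 1.96 CPM in Opa1cKO and 10.3 ± 3.97 CPM in WT, a log2 fold change of -2.19 (SE 0.480, adjusted p = 0.0136 by edgeR), the largest among the called members. Without Opa1cKO 5 it was -2.98 (adjusted p = 0.00195), and with the 4 libraries of contradicted sex removed, -1.96 (adjusted p = 0.267).

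The other system A genes, Slc38a1 and Slc38a2, were far more abundant and were not called. Slc38a1 encodes SNAT1, and Opa1cKO 1 to 6 had 554, 499.8, 771, 483, 430.1 and 807 CPM, while WT 1 to 6 had 481, 484, 707, 532, 485 and 498 CPM. Opa1cKO 6 and 3 and WT 3 were high and the groups overlapped (log2 fold change 0.20, SE 0.173, edgeR adjusted p = 0.510). Slc38a2 encodes SNAT2, the member that amino acid starvation induces in many cell types. Libraries Opa1cKO 1 to 6 read 149.6, 174, 123, 315, 329 and 259 CPM, and WT 1 to 6 read 161, 175, 163, 190.4, 247 and 305 CPM. Opa1cKO 4 to 6 and WT 5 and 6 were high, so the spread within each genotype was wider than the gap between them (log2 fold change 0.12, SE 0.266, edgeR adjusted p = 0.833). Its sign depended on the libraries, with 0.77 (edgeR adjusted p = 0.0333) among labelled females and -0.53 (edgeR adjusted p = 0.540) among labelled males. Once the 4 libraries of contradicted sex were left out, it was 0.82 (edgeR adjusted p = 0.0432), in a set that shares most libraries with the labelled females. WT 5 and 6, the WT libraries labelled male, both read as female. These fits therefore cannot show a difference between the sexes, which was not tested.

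Slc38a5 encodes SNAT5, a system N carrier of glutamine, and it had the smallest p of the Slc38 members not called. It averaged 0.763 ± 0.613 CPM in Opa1cKO and 3.07 ± 1.37 CPM in WT, with ranges of 0.0702 to 1.62 and 1.41 to 4.97 CPM that overlapped. The log2 fold change was -1.90 (edgeR adjusted p = 0.0638), and it passed in 7 of 27 alternative analyses, among them DESeq2 (adjusted p = 0.00553) and the fit without Opa1cKO 2 (-2.22, adjusted p = 0.0312). Slc38a10, a widely expressed member whose transport role is little studied, had 184.5, 193, 158, 184, 157 and 156 CPM in Opa1cKO 1 to 6 and 155, 129, 179, 162, 162 and 175 CPM in WT 1 to 6. The groups overlapped (log2 fold change 0.05, SE 0.0905, edgeR adjusted p = 0.782).

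Slc38a7 and Slc38a9 belong to the lysosome. Slc38a7, which exports glutamine from lysosomes, had 27.4, 26.5, 23.2, 27.8, 26.5 and 25.9 CPM in Opa1cKO 1 to 6 and 24.7, 22.1, 30.7, 22.7, 25.2 and 23.1 CPM in WT 1 to 6. The groups overlapped, WT 3 being the highest of all (log2 fold change 0.09, SE 0.0979, edgeR adjusted p = 0.602). Slc38a9, which senses lysosomal arginine for the growth kinase complex mTORC1, averaged 44.3 ± 7.10 CPM in Opa1cKO and 37.3 ± 4.16 CPM in WT. Its log2 fold change of 0.27 did not pass in all libraries (edgeR adjusted p = 0.176) and passed without Opa1cKO 3 (0.32, adjusted p = 0.049). An antisense gene overlaps Slc38a9 over 16558 bases but had almost no reads, with a mean of 0 CPM in Opa1cKO and 0.00316 CPM in WT.

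In the Slc36 family, 2 of 4 members were tested. Slc36a4 encodes PAT4, a carrier of proline and tryptophan (ENSMUSG00000043885, chromosome 9, 15709738 to 15743361, plus strand). Across Opa1cKO 1 to 6 the gene stood at 77.9, 69.1, 83.4, 67.6, 93.9 and 68.7 CPM, against 114, 111, 121, 88.9, 115 and 107 CPM across WT 1 to 6. The ranges met only through Opa1cKO 5 and WT 4. The means were 76.8 ± 10.5 CPM in Opa1cKO and 109 ± 11.1 CPM in WT, a log2 fold change of -0.50 (SE 0.104, adjusted p = 0.00898 by edgeR), and -0.50 again without the 4 libraries of contradicted sex (adjusted p = 0.126). Slc36a1, or PAT1, which exports small amino acids from lysosomes, averaged 10.5 ± 1.74 CPM in Opa1cKO and 8.73 ± 0.797 CPM in WT and was not called (log2 fold change 0.32, edgeR adjusted p = 0.122).

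None of the 6 tested members of Slc1 was called by edgeR or limma-voom, while DESeq2 called Slc1a6. Of all genes, edgeR called 10.2%, limma-voom 9.68% and DESeq2 15.2%. At an unadjusted p below 0.05, Slc1a1, Slc1a4 and Slc1a6 lay above 0 and Slc1a2 below, 4 in all, beside 25.2% of all genes. Slc1a5 encodes ASCT2, the main exchanger that brings glutamine into many growing cells. Opa1cKO 1 to 6 had 85.4, 87.2, 75.1, 119, 101 and 84.6 CPM, and WT 1 to 6 had 65.7, 73.5, 62.6, 75.3, 78.8 and 95.3 CPM. WT 6 lay above 4 of the 6 Opa1cKO libraries, so the groups overlapped (log2 fold change 0.25, SE 0.121, edgeR adjusted p = 0.222). Slc1a4, or ASCT1, which exchanges alanine, serine and cysteine, had 9.69, 9.85, 14.2, 15.3, 8.82 and 17.1 CPM in Opa1cKO 1 to 6 and 8.40, 6.72, 11.6, 10.2, 9.00 and 9.47 CPM in WT 1 to 6. Opa1cKO 3, 4 and 6 were above every WT library and the other 3 were not (log2 fold change 0.45, SE 0.194, edgeR adjusted p = 0.164).

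The glutamate carriers of the Slc1 family were low or variable. Slc1a1, or EAAC1, averaged 10.8 ± 11.03 CPM in Opa1cKO and 4.39 ± 0.842 CPM in WT, and a single library, Opa1cKO 6 at 32.1 CPM, made most of that gap. Its log2 fold change was 1.34 in all libraries (edgeR adjusted p = 0.139), 0.13 without Opa1cKO 6 (adjusted p = 0.900) and 1.59 without Opa1cKO 5, where it passed (adjusted p = 0.0363). Slc1a6, a glutamate carrier known from Purkinje cells, had the smallest p of the family at 0.853 ± 0.218 CPM in Opa1cKO and 0.442 ± 0.148 CPM in WT. Its log2 fold change was 1.06 (edgeR adjusted p = 0.0631), and it passed in DESeq2 (adjusted p = 0.0258). The glial carriers Slc1a2 and Slc1a3 reached at most 1.39 CPM in any library and were not called.

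**Figure D3:**
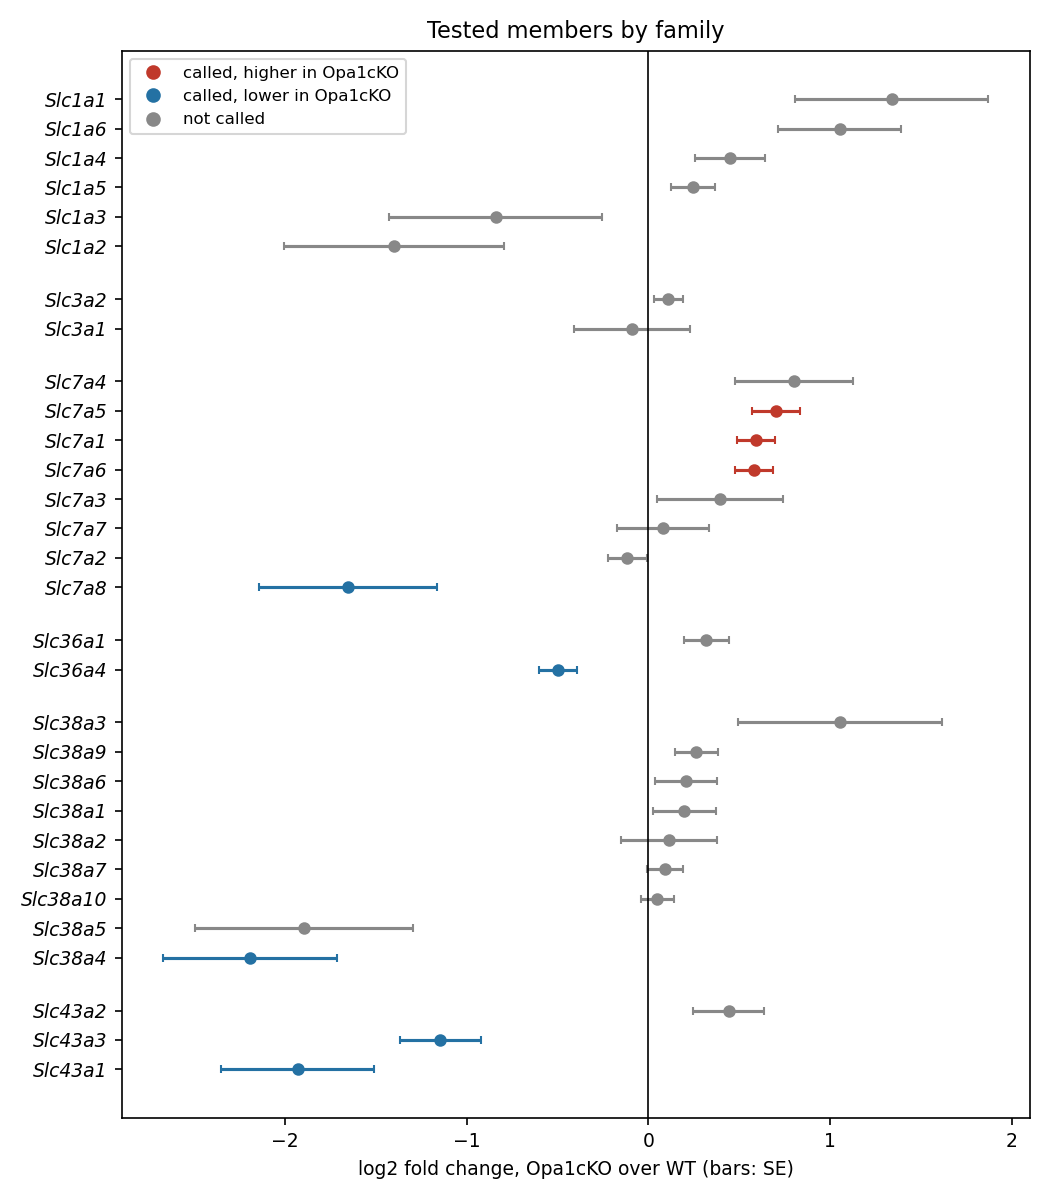
Log2 fold change, Opa1cKO over WT, of the 30 tested members by family, with bars of 1 SE; red marks the 3 called members higher in Opa1cKO, blue the 5 lower and grey the rest. Slc7 holds all 3 higher calls, while the lower calls come from Slc7, Slc36, Slc38 and Slc43.

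Libraries of a genotype did not deviate alike. Over the 8 called members, Opa1cKO 5 was the Opa1cKO library nearest the WT mean for 5, including 4 of the 5 lower members, whereas Opa1cKO 1, 4 and 6 were nearest for none. This count was chosen after the values were seen. Of the 8 calls, 7 passed with any 1 library left out, and the sign of all 8 held in every alternative analysis. All 8 also passed with sex entered as the sex-linked reads show it, with adjusted p from 0.00208 to 0.0484. Without the 4 libraries of contradicted sex, both genotypes were left only among labelled females (Opa1cKO 5 and 6, WT 1 to 3). That fit called 2 of the 30 members, Slc7a6 and Slc38a2, beside 2.07% of all genes. Labelled females alone gave 2 member calls, beside 1.90% of all genes, and labelled males alone gave 3, beside 2.64%.

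**Figure D4:**
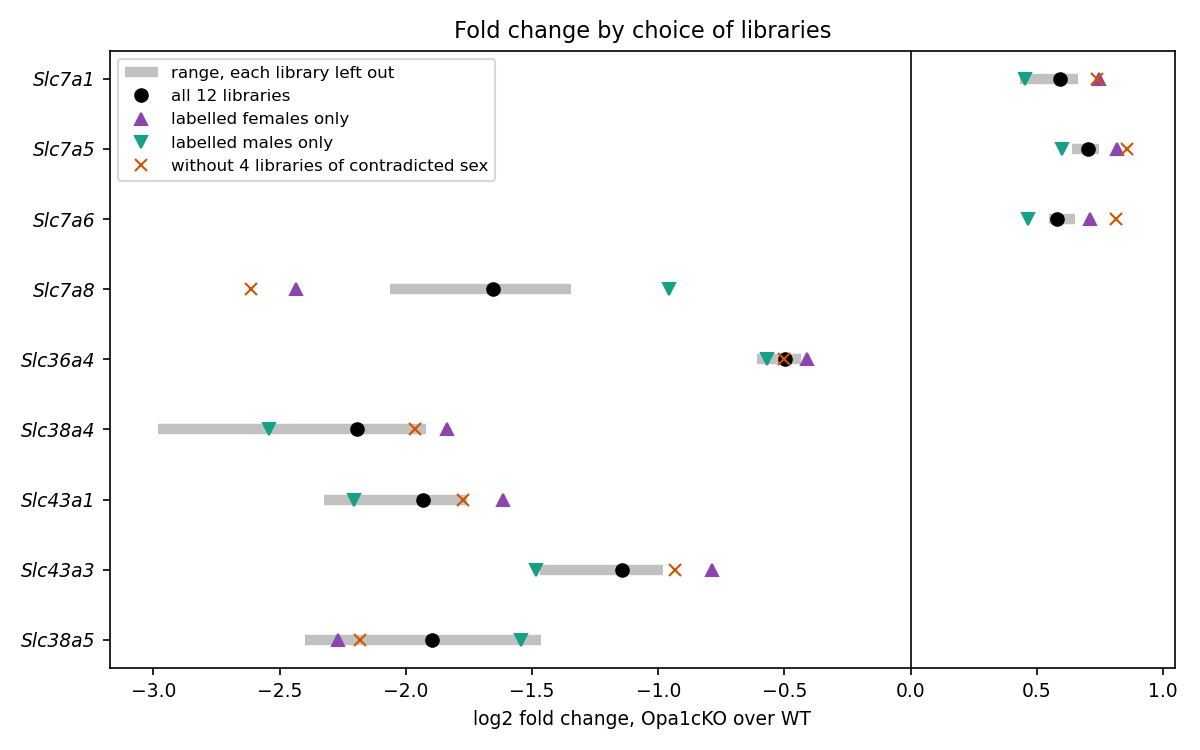
Log2 fold change, Opa1cKO over WT, of the 8 called members and Slc38a5 under 4 choices of libraries, with grey bars for the range when each library is left out in turn. No marker crosses 0, and the spread is widest for Slc7a8 and Slc38a4.

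Genes of the wider amino acid pathway were read from 4 lists, with the calls of the same fit. Among 11 tested carriers outside the 6 families, 2 were higher and none lower in Opa1cKO by edgeR, 18.2% of them against 10.2% of all genes. Slc25a38, a glycine carrier of mitochondria, was the 1 gene below 0 at an unadjusted p under 0.05, and DESeq2 called it. Slc6a17, a neutral amino acid carrier of synaptic vesicles, had 30.8, 23.5, 32.6, 22.75, 11.6 and 31.8 CPM in Opa1cKO 1 to 6 and 4.38, 4.71, 5.75, 6.21, 8.46 and 4.77 CPM in WT 1 to 6. The groups did not overlap, with Opa1cKO 5 nearest to WT (log2 fold change 2.05, SE 0.240, edgeR adjusted p = 0.000235). Slc25a22, a mitochondrial glutamate carrier, averaged 14.8 ± 2.01 CPM in Opa1cKO and 10.1 ± 1.34 CPM in WT (log2 fold change 0.49, edgeR adjusted p = 0.0200).

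Of 22 tested genes of the amino acid starvation response, 5 were higher and 2 lower in Opa1cKO, 31.8% against 10.2% of all genes, and this list also holds genes that other stresses regulate. Asns, asparagine synthetase, averaged 23.3 ± 6.19 CPM in Opa1cKO and 9.93 ± 1.44 CPM in WT (log2 fold change 1.26, edgeR adjusted p = 0.000763). Pycr1, which makes proline in mitochondria, averaged 11.7 ± 4.55 CPM in Opa1cKO and 4.55 ± 1.11 CPM in WT (log2 fold change 1.41, edgeR adjusted p = 0.00256). Both genes separated the genotypes completely. Psat1, Trib3 and Cebpg were the others called higher. The lower genes were Vldlr, a lipoprotein receptor, at -1.05 in log2 (edgeR adjusted p = 1.2e-05), and Ddit4, an inhibitor of mTORC1 that hypoxia also induces, at -2.48 (edgeR adjusted p = 0.000127). Atf4 itself averaged 225 ± 31.2 CPM in Opa1cKO and 165 ± 37.3 CPM in WT and was not called (log2 fold change 0.35, edgeR adjusted p = 0.0770).

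Of 32 tested genes through which amino acids reach mTORC1, 3 were higher and 1 was lower, 12.5% against 10.2% of all genes, a share near the background. Rragd, a Rag GTPase that recruits mTORC1 to lysosomes, averaged 22.75 ± 3.39 CPM in Opa1cKO and 11.6 ± 2.19 CPM in WT (log2 fold change 0.96, edgeR adjusted p = 0.00135). Nprl3, a subunit of the GATOR1 brake, rose by 0.45 in log2 (edgeR adjusted p = 0.035) and Fnip2, a folliculin partner, by 0.47 (edgeR adjusted p = 0.0235). Sesn3, a sestrin that restrains mTORC1, fell by 0.54 (edgeR adjusted p = 0.0210). Of 26 tested enzymes that use amino acids, Bcat1, the cytosolic branched-chain aminotransferase, and Odc1, which makes putrescine from ornithine, were higher, 7.69% against 10.2% of all genes, below the background. No enzyme was called lower by edgeR, where Glul and Nos3 lay below 0 at an unadjusted p under 0.05 (2 genes), and DESeq2 called 1, Glul. The log2 fold changes were 1.41 for Bcat1 (edgeR adjusted p = 0.0154) and 0.73 for Odc1 (edgeR adjusted p = 0.0211). Slc25a22, Psat1, Trib3, Cebpg, Nprl3, Fnip2, Sesn3, Bcat1 and Odc1 lost their calls without Opa1cKO 6. Cebpg also lost its call without any 1 of 8 other libraries and Nprl3 without any 1 of 6 others, and Nprl3 did not pass in 13 of 27 alternatives, both TPM fits among them. Slc25a22, Trib3, Fnip2, Sesn3, Odc1 and the cell marker Cdh2 also did not pass without WT 6, nor Trib3, Fnip2 and Odc1 without WT 5. With the 4 libraries of contradicted sex removed, Slc6a17, Pycr1, Vldlr, Ddit4 and Rragd kept their calls (adjusted p from 0.00591 to 0.0493). Asns (1.30, adjusted p = 0.0619), Slc25a22, Psat1, Trib3, Cebpg, Nprl3, Fnip2, Sesn3, Bcat1 and Odc1 did not pass there, with the same signs. Without WT 6, 1 carrier, 2 mTORC1 genes and 1 enzyme were called, beside 6.34% of all genes. Without WT 5 it was 1 enzyme, beside 7.10% of all genes. Without Opa1cKO 5 it was 5 enzymes, where the share of all genes called also rose, to 12.2%.

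Marker genes of other cell types were measured beside these results. The marker calls stand beside the 10.2% of all genes called by edgeR. Of 9 tested nucleus pulposus markers, 1 was called, Cdh2 (N-cadherin), at 383 CPM in Opa1cKO and 519 CPM in WT (log2 fold change -0.43, edgeR adjusted p = 0.0137). Foxa2 and Cd24a also lay below 0 at an unadjusted p under 0.05 by edgeR, and DESeq2 called Foxa2 lower. Of 4 tested macrophage genes, Cd68 was higher, at 38.6 CPM in Opa1cKO and 15.3 CPM in WT. Csf1r was lower, at 66.2 CPM in Opa1cKO and 116 CPM in WT, as was Cd163, at 0.319 CPM in Opa1cKO and 5.65 CPM in WT. With the 4 libraries of contradicted sex removed, Cd68 and Cd163 kept their calls (adjusted p = 0.0257 and 0.00711 by edgeR), while Csf1r (adjusted p = 0.128) and Cdh2 (adjusted p = 0.243) did not. The 9 macrophage genes summed to 97.2 to 117 CPM in Opa1cKO and 105 to 197 CPM in WT. Most of that sum was Csf1r and Cd68, which moved in opposite directions. Ptprc, Adgre1 and C1qb averaged 0.21, 0.020 and 0.026 CPM in Opa1cKO and 0.26, 0.033 and 0.066 CPM in WT. C1qa and Fcgr1 stayed below 0.1 CPM in every library. Endothelial markers summed to 2.53 to 4.52 CPM in Opa1cKO and 1.77 to 3.81 CPM in WT, and neither of the 2 tested was called by edgeR or DESeq2, with 1 (Vwf) at an unadjusted p below 0.05. Erythroid markers summed to 0.223 to 1.94 CPM in Opa1cKO and 0.0434 to 2.74 CPM in WT, with Hba-a1, Hba-a2 and Hbb-bt below 0.1 CPM in every library. The other marker lists overlapped between genotypes as well. Chondrocyte markers summed to 6735 to 18470 CPM in Opa1cKO and 11360 to 17980 CPM in WT, and most of that was Acan. None was called by edgeR, where Col2a1 lay above 0 and Acan below at an unadjusted p under 0.05, and DESeq2 called Acan lower. Acan is also the locus from which the Cre is driven, and whether that bears on its reads was not tested. Fibroblast markers summed to 268 to 538 CPM in Opa1cKO and 176 to 383 CPM in WT, and nerve markers to 26.7 to 32.3 CPM in Opa1cKO and 20.3 to 31.1 CPM in WT. The nerve marker Mbp was called higher by DESeq2 and not by edgeR. Skeletal muscle markers summed to 1.48 to 15.7 CPM in Opa1cKO and 1.24 to 15.0 CPM in WT, and keratinocyte markers to 2.11 to 4.20 CPM in Opa1cKO and 2.76 to 5.57 CPM in WT. Adipocyte markers summed to 0.163 to 0.565 CPM in Opa1cKO and 0.0434 to 0.412 CPM in WT, and osteoblast markers to 0.122 to 0.915 CPM in Opa1cKO and 0.109 to 3.47 CPM in WT. The part of these cells in the carrier results was not tested.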

How the data were processed

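Whole-number read counts for 32285 genes in 12 libraries were deposited by the authors. The submitters' processing notes name STAR 2.7.11b and mm10. The counting tool, annotation and strand option were not given in the sources used here, and reads of overlapping genes cannot be told apart. The authors also deposited TPM, used here for levels between genes, with 30250 of 32128 symbols matched to the count table. Per the labels' protocols, each library began with 50 ng of RNA depleted of ribosomal RNA and took 14 PCR cycles, so intervals and errors do not separate PCR copies from molecules. Each library came from 1 of the 6 mice per genotype, and no 2 libraries of a genotype agreed within sampling noise.

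The test was edgeR 4.0.16's quasi-likelihood F test (R 4.3.3), fitted robustly to all 12 libraries with genotype and labelled sex as terms, after TMM scaling and filterByExpr (minimum count 10). P-values were adjusted with Benjamini-Hochberg over 15229 genes, and a gene was called below 0.05 with no minimum fold. Log2 fold changes are Opa1cKO over WT. Each edgeR SE was worked back from the test, as the absolute log2 fold change divided by the square root of the F statistic. Alternatives were DESeq2 1.42.0, limma-voom and limma on log2(TPM + 1) or log2(TPM + 0.1) (limma 3.58.1), other scalings and filters, other sex terms, a replicate block, each labelled sex alone, the 4 libraries of contradicted sex left out, and each library left out. On counts simulated from these libraries for Opa1cKO over WT, over 15079 genes, 25.8% of 1.5-fold, 75.8% of 2-fold and 86.2% of 4-fold changes were recovered, with 3.91% of calls false. Gene positions came from GENCODE M21, which matched 32158 of the identifiers, and promoter windows from RefSeq.

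The members, the 4 pathway lists and 11 marker lists were chosen with earlier results of these data known. By rule, library values are given for called members and for the 8 others of highest mean TPM, and means for members whose call changed when 1 library was left out and for the smallest p among those not called in each family. Up to 4 called genes per list are named, by smallest p; Slc25a38, Glul, Nos3, Vwf, Atf4, Slc7a11, Rtn4rl2 and the markers were named outside that rule, after their values were seen.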

Additional observations from a re-analysis of the deposited data

Results flagged for a closer look

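In 60 groups of 6 libraries (30 members in 2 genotypes), 10 had a highest or lowest library whose gap to the next exceeded Dixon's limit. For independent, normally distributed values, about 1 group in 20 exceeds that limit by chance. The groups hold untransformed CPM and share libraries, so the 10 cannot be set against that rate. Opa1cKO 5 was the high library for 4 members, with 857 CPM of Slc7a2 (next 657), 99.9 CPM of Slc43a3 (next 52.8), 5.76 CPM of Slc38a4 (next 1.93) and 0.888 CPM of Slc1a3 (next 0.299). Opa1cKO 6 was high for Slc7a1, at 139.8 CPM (next 106), and for Slc1a1, at 32.1 CPM (next 12.0). Opa1cKO 3 was high for Slc7a8, at 2.36 CPM (next 1.060), and Opa1cKO 4 was low for Slc1a6, at 0.447 CPM (next 0.866). In WT, replicate 3 was high for Slc38a1, at 707 CPM (next 532), and for Slc38a7, at 30.7 CPM (next 25.2).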

How the results depend on the processing

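Over the 30 tested members and 27 alternatives, 744 of the results kept their direction and their side of the threshold, 32 lost and 14 gained a call, and 12 changed sign. Against 8 member calls in all libraries, 7 to 9 were made when 1 library was left out, beside 5.34 to 13.0% of all genes. DESeq2 made 10, beside 15.2% of all genes, and the TPM fits 10 each, beside 9.17 and 9.19%. With no filter on low counts, 7 of 39 members were called (17.9%), beside 6.00% of 22965 genes. Under the replicate block 7 were called, beside 5.05% of all genes, and Slc43a1 was lost (edgeR adjusted p = 0.0648). Labelled females alone gave 2 calls, labelled males 3, and the set without the 4 libraries of contradicted sex 2. Over all genes, 1558 calls became 300, 419 and 325 in those 3 subsets, 769 under the replicate block, and 819 (without Opa1cKO 6) to 1995 (without Opa1cKO 3) when 1 library was left out, with 973 without WT 6. The 19 calls in the pathway and marker lists became 29 with DESeq2, 8, 11 and 9 in the 3 subsets, 12 under the block, and 13 to 27 with 1 library left out. Replicate numbers did not pair the libraries, since same-numbered deviations correlated at -0.217 to 0.043. Sign changes, none of the 8 called members, were Slc3a1 at 0.32 (labelled females), 0.19 (without the contradicted libraries), 0.03 (without Opa1cKO 3) and 0.048 (without WT 5), within -0.232 to 0.048 over single libraries left out; Slc7a2 at 0.007 (without the contradicted libraries); Slc7a7 at -0.13 (labelled males), -0.009 (without Opa1cKO 1) and -0.061 (without Opa1cKO 6), within -0.061 to 0.277; Slc38a2 at -0.53 (labelled males), -0.003 (without Opa1cKO 4) and -0.094 (without Opa1cKO 5), within -0.094 to 0.314; and Slc38a6 at -0.033 (labelled males). The cause was not tested. Slc43a1 was below 1 CPM in every library, so its values rest on few counts.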
